A study of Mus musculus with 24 samples.

Results

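The thrombospondin, Tgm2 and TGF-beta axis is described here by 10 genes, found by their symbols in each of the 4 deposited tables, which hold between 24340 and 24557 genes. They comprise 2 genes tied to the activation of latent TGF-beta (Thbs1 and Tgm2), the 3 ligand genes Tgfb1, Tgfb2 and Tgfb3, the receptor genes Tgfbr1 and Tgfbr2, the signal carrier Smad3, the inhibitor Smad7 and the target Tgfbi. Thbs1, Tgm2 and Tgfb2 were chosen on measured values, namely their very low level after deletion of Jak1 in this same series. Their values in the Jak1 experiment are therefore given as a description with no test, while the other 7 genes were open to testing there and all members in the other experiments.

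TGF-beta is secreted in a latent form, bound to its own propeptide, and must be released before it can act. Thrombospondin-1, a secreted matrix glycoprotein encoded by Thbs1, can release it by binding the propeptide. Tissue transglutaminase, the protein-crosslinking enzyme encoded by Tgm2, helps to store and activate the latent complex in the matrix. The freed ligand binds the type II receptor Tgfbr2, which phosphorylates the type I receptor Tgfbr1, and this in turn phosphorylates Smad2 and Smad3, which enter the nucleus with Smad4. Smad7 is induced by the pathway and blocks it at the receptor, and Tgfbi encodes a TGF-beta-induced matrix protein that monocytes and macrophages also make. In blood-forming tissue TGF-beta is best known for holding stem cells in quiescence.

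Polyadenylated or total RNA of leukemia cells grown from C57BL/6 mouse bone marrow was sequenced in 24 libraries, 3 in each of 8 groups. The growth medium held SCF, IL3 and IL6 in every group. In CALM-AF10 inducible cells the fusion off libraries were set against the fusion on libraries, as the table's columns name them. The titles of those samples give DOX and DMSO, and no source used here ties these names to off and on. MLL-AF10 inducible and MLL-AF9 inducible cells treated with doxycycline (DOX) were set against the same cells given the vehicle DMSO. All 3 inducible models carry the genotype label wild type, so apart from the fusion no allele is named. The last comparison set Jak1 null cells, in which the gene was deleted, against Jak1 floxed cells, whose columns the table names DMSO. The null cells were made by Cre-ER activated with 4-OHT, and both groups carry CALM-AF10. No source used here states doses, times, the deleted exons or the number of clones, and cells given DOX or 4-OHT without a fusion or a floxed gene were not analysed here. Nothing in the labels says whether replicate libraries were grown apart, so p-values reflect the spread between libraries, which may be technical.

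CALM-AF10 libraries held 12130633 to 37445525 counts with the fusion off and 24448224 to 40187404 with it on. Jak1 libraries held 12264344 to 12855096 counts in null and 11743388 to 13764632 in floxed cells. The depth of MLL-AF10 libraries is unknown. In MLL-AF9 the smallest steps of the FPKM gave a depth relative to DMSO 1 of 30.1% for DOX 1, 82% for DOX 2 and 103% for DOX 3, against 91.7% for DMSO 2 and 68.5% for DMSO 3. A single small RNA entry took 74.02% to 92.44% of the summed FPKM of an MLL-AF9 library. Myeloid markers (Mpo, Elane, Prtn3, Ptprc, Itgam and Spi1) were high in every group, with a summed level of 4790 to 5031 CPM in null and 3986 to 4096 CPM in floxed cells. B cell and T cell markers were near 0 in both count tables, at no more than 0.657 summed CPM in any library. In bulk samples, fewer cells of a type and less RNA per cell cannot be told apart.

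In mm9, Thbs1 and Tgm2 both lie on chromosome 2, Thbs1 on the plus strand from 117937612 to 117952869 and Tgm2 on the minus strand from 157942138 to 157972172. Tgfb2 lies on chromosome 1 from 188447065 to 188529871, Tgfb1 on chromosome 7 from 26472021 to 26490096 and Tgfbi on chromosome 13 from 56710920 to 56740923. Tgfbr2 lies on chromosome 9 from 115993415 to 116084383. These are spans of whole genes in GENCODE vM1, exons, introns and UTRs included, and counts are of reads over the gene.

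Promoter windows from RefSeq were found for 6 of the 10 genes (Tgfb1, Tgfb2, Tgfbr1, Tgfbr2, Smad3 and Tgfbi), and 3 are shown for the contrast that the results turn on: the ligand that was far lower after Jak1 loss, the ligand whose groups overlapped, and the target gene. Each is the 250 bases before the start of transcription, on the gene's own strand, in GRCm38.p6. The windows are chr1:186705990-186706239 on the minus strand for Tgfb2, chr7:25686752-25687001 on the plus strand for Tgfb1 and chr13:56609336-56609585 on the plus strand for Tgfbi. Capitals mark the SMAD motif CAGAC on either strand and the TATA box TATAAA.
Tgfb2: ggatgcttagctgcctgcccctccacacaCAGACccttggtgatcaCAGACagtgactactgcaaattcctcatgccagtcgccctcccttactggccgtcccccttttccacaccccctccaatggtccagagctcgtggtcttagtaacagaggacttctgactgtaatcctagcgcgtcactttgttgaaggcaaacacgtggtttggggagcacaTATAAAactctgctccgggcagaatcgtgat
Tgfb1: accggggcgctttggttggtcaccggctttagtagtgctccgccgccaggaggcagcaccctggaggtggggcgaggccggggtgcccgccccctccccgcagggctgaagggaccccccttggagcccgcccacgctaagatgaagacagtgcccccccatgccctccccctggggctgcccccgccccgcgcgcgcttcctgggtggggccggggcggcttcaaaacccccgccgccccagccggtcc
Tgfbi: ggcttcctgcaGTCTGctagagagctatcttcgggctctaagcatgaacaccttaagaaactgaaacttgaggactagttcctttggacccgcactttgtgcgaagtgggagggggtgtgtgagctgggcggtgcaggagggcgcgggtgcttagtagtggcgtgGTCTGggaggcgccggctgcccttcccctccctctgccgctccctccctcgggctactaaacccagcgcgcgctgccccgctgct
The Tgfb2 window held CAGAC 221 to 217 and 204 to 200 bases before the start and TATAAA 31 to 26 bases before it. The Tgfb1 window held neither, but 5 copies of the SP1 GC box GGGCGG over both strands, and 75.2% of its bases were G or C, against 53.6% for Tgfb2. The Tgfbi window held CAGAC on the opposite strand, 239 to 235 and 85 to 81 bases before the start, and GGGCGG 124 to 119 bases before it. Over the same 250 bases of all 32851 windows of the table, searched on both strands, 42.2% held CAGAC, 32.7% GGGCGG and 12.4% TATAAA. The STAT motif TTCNNNGAA (7.02% of all windows) and the AP-1 motif TGANTCA (6.75%) were not found in the windows of the 6 genes. The motif GCCNNNGGC of AP-2 (13.7% of windows) was found once, before a start of Tgfbr1, and the CArG box of SRF (1.47%) was not found. No motif overlapped another in the 3 windows shown, and a match of letters is a description only.

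Levels per length set the order of the genes within a table. In null cells Tgfb1 stood alone at the top with 150 ± 5.03 CPM per kilobase (SD, n = 3). Thbs1 followed at 16.1 ± 0.663, Tgfbr1 at 9.46 ± 0.468 and Tgfbr2 at 5.82 ± 0.0547. Smad7 (3.69 ± 0.253), Tgfbi (3.05 ± 0.348) and Smad3 (2.86 ± 0.234) came next, and Tgfbi and Smad3 lay within their spread of each other. Tgfb2 (0.430 ± 0.0778) and Tgm2 (0.281 ± 0.116) could not be ordered, and Tgfb3 was lowest at 0.117 ± 0.0242. In floxed cells Thbs1 (163 ± 5.23 CPM per kilobase, SD, n = 3) and Tgfb1 (156 ± 4.47) stood highest and lay within their spread of each other. Tgm2 followed at 54.9 ± 3.12, then Tgfb2 at 16.6 ± 0.473, Tgfbr2 at 9.46 ± 0.397 and Tgfbr1 at 7.76 ± 0.191 CPM per kilobase. Smad3 (2.29 ± 0.154), Smad7 (2.22 ± 0.173) and Tgfbi (1.86 ± 0.424) could not be ordered beyond their spread, and Tgfb3 was lowest at 0.401 ± 0.0903. The same 2 genes led in CALM-AF10 cells with the fusion off, where Thbs1 was at 414 ± 59.7 and Tgfb1 at 206 ± 12.3 CPM per kilobase, and with it on, at 338 ± 37.8 and 217 ± 5.57. Both these tables are of CALM-AF10 cells, yet Tgfb2 was at 0.504 ± 0.0997 (off) and 0.561 ± 0.0694 (on) CPM per kilobase in the inducible cells and Tgfbi at 65.0 ± 3.54 (off) and 58.6 ± 1.51 (on), the reverse of their order in floxed cells. The tables were normalized separately and their cells differ, so that contrast was not tested. In MLL-AF9 cells Thbs1 led Tgm2 and Tgfb1 in both groups, with 1071 ± 59.2, 151 ± 9.83 and 63.4 ± 9.18 FPKM for the 3 genes with DOX. The same genes stood at 604 ± 41.4, 107 ± 15.7 and 46.9 ± 4.57 FPKM with DMSO, with Tgfb2 at the lowest value of the table in all 6 libraries.

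**Figure D1:**
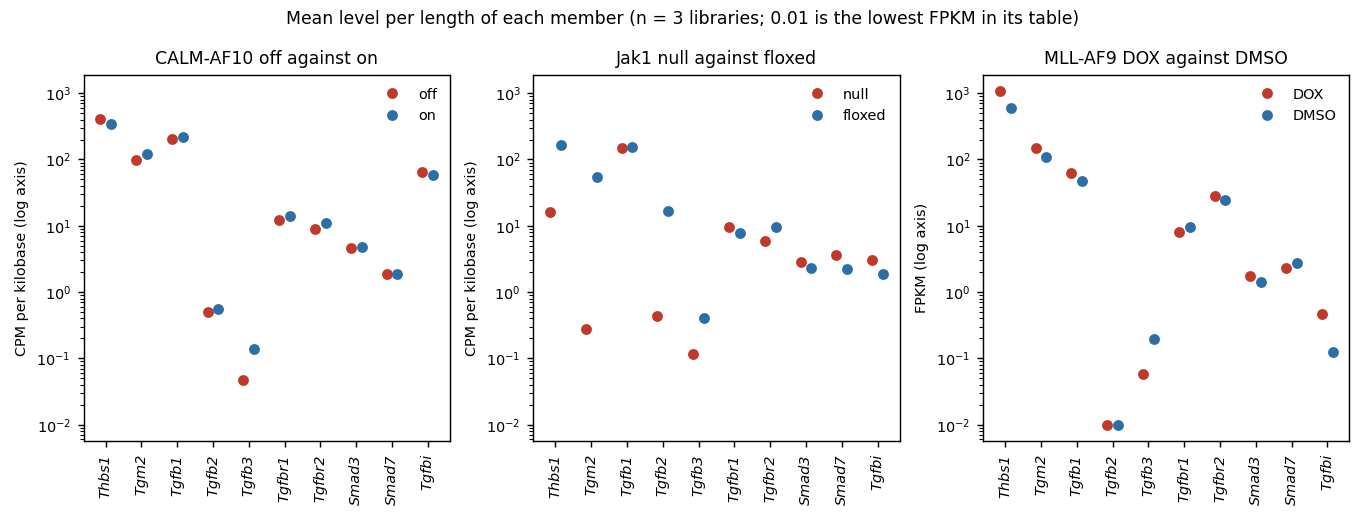
Mean level of the 10 genes per length on a log axis, in CPM per kilobase for the CALM-AF10 and Jak1 experiments and in FPKM for MLL-AF9 (points are means of 3 libraries, the off, null and DOX groups in red and the on, floxed and DMSO groups in blue). In the Jak1 panel Thbs1, Tgm2 and Tgfb2 drop far below floxed cells while Tgfb1 lies at 150 CPM per kilobase in null and 156 in floxed cells.

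JAK1 is the tyrosine kinase that carries signals from cytokine receptors such as those of the IL6 family to STAT factors. Jak1 transcript itself was at 2073, 1919 and 1933 TMM-scaled counts in null libraries and at 2451, 2443 and 2480 in floxed libraries (log2 fold change −0.32, SE 0.0372, adjusted p = 2.00e-08, edgeR). TMM-scaled counts are read counts brought to a common library size. Reads outside the deleted exons still count towards the gene, so its level does not measure how complete the deletion was.

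After Jak1 loss both activator genes and the ligand gene Tgfb2, chosen on this contrast, stood far lower, with Thbs1 still the second highest member per length and Tgm2 and Tgfb2 at no more than 32 reads in a null library. The groups overlapped for the main ligand gene, Tgfb1. The receptor genes moved apart, Tgfbr1 up and Tgfbr2 down, and the signal carrier, the inhibitor and the target were higher. Tgfb3 passed the filter on low counts through the floxed group alone and is described without a test. Of the other 6 genes, 4 rose (Tgfbr1, Smad3, Smad7 and Tgfbi), 1 fell (Tgfbr2) and Tgfb1 was not called. Over all 11607 genes tested 55.7% were called, 27.4% higher and 28.3% lower, so a call in this experiment is common. The median log2 fold change of the 6 was 0.31, against 0.008 over all genes tested.

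Thbs1 had 1198, 1199 and 1286 TMM-scaled counts in null cells, against 12110, 12854 and 12240 in floxed cells, 10.1-fold lower (log2 fold change −3.34). Tgm2 had 14.3, 23.6 and 10.7 in null cells, against 3018, 3366 and 3114 in floxed cells, 195-fold lower (−7.60), which rests on 14, 24 and 11 reads in the null libraries. Tgfb2 had 23.5, 31.5 and 23.2 in null cells, against 1016, 1029 and 974 in floxed cells, 38.6-fold lower (−5.26). The null and floxed libraries were far apart for each of the 3 genes, on which they were chosen. The null libraries held 79 reads of Tgfb2 in all, so the gene was still detected.

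Tgfb1, the ligand most abundant in these cells, had 4852, 4623 and 4934 TMM-scaled counts in null cells, against 4856, 5142 and 5004 in floxed cells. The groups overlapped and the difference was not called (log2 fold change −0.06, SE 0.0328, adjusted p = 0.130, edgeR). Tgfb2 was thus at 0.00287 of the Tgfb1 level per length in null cells and at 0.106 of it in floxed cells. Tgfb3 had 5.10, 5.91 and 3.87 TMM-scaled counts in null cells, against 16.0, 13.7 and 21.2 in floxed cells. The groups did not overlap, and the null libraries held 5, 6 and 4 reads.

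Tgfbr2, the ligand-binding receptor, had 590.0, 595 and 584 TMM-scaled counts in null cells, against 928, 942 and 1004 in floxed cells (−0.70, SE 0.0483, adjusted p = 1.87e-13). Tgfbr1, its signalling partner, had 746, 818 and 758 in null cells, against 651, 620.0 and 634 in floxed cells (0.29, SE 0.049, adjusted p = 1.08e-05). The null libraries lay wholly below the floxed ones for Tgfbr2 and wholly above them for Tgfbr1. Smad3 had 180, 210 and 205 in null cells, against 158, 148 and 170 in floxed cells (0.33, SE 0.0972, adjusted p = 0.00528). Smad7 had 209, 194 and 223 in null cells, against 127, 115 and 135 in floxed cells (0.74, SE 0.101, adjusted p = 3.09e-07). Tgfbi had 101, 112 and 127 in null cells, against 56.7, 64.0 and 86.9 in floxed cells (0.72, SE 0.147, adjusted p = 0.000128). All these p-values are from edgeR's quasi-likelihood test with Benjamini-Hochberg adjustment over all genes tested, and the calls of Tgfbr2, Tgfbr1, Smad3, Smad7 and Tgfbi were kept in all 11 alternatives.

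**Figure D2:**
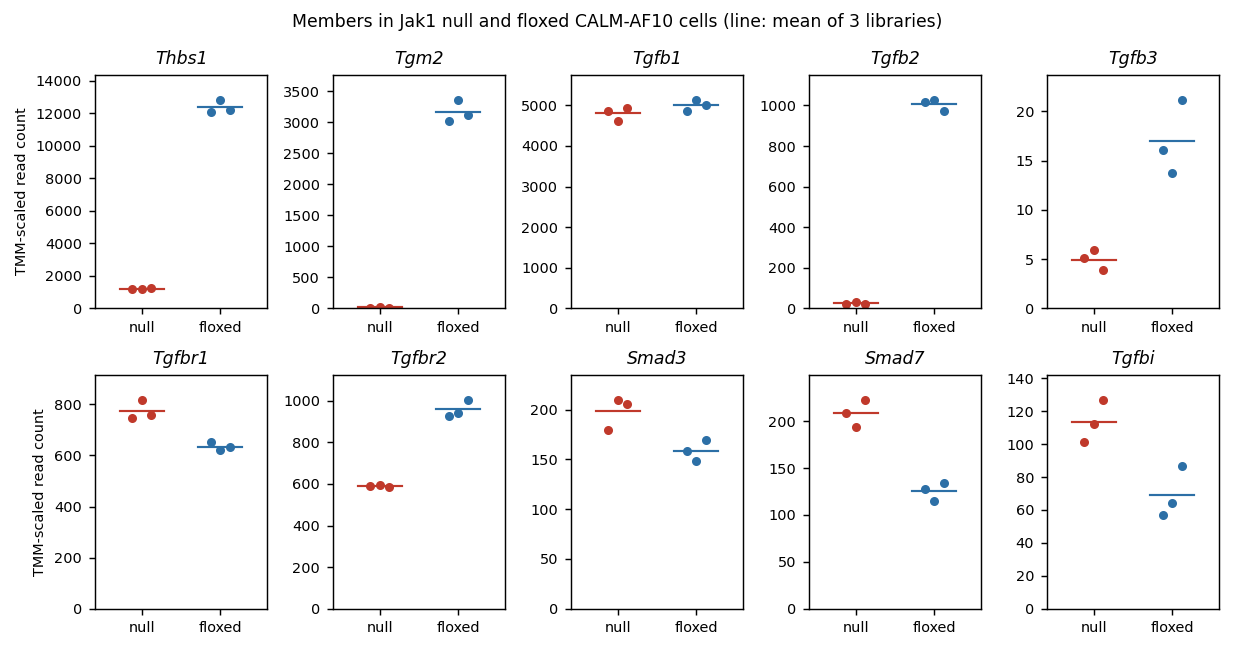
TMM-scaled read counts of the 10 genes in the 3 Jak1 null (red) and 3 Jak1 floxed (blue) libraries, 1 panel a gene, axes from 0, the line being the group mean. Thbs1, Tgm2 and Tgfb2 sit near the base of their panels in null cells, Tgfb1 overlaps between groups, Tgfbr2 is lower and Tgfbr1, Smad3, Smad7 and Tgfbi are higher.

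Most of the listed textbook target genes of TGF-beta that could be tested fell. That list leaves out the members Smad7 and Tgfbi, which rose (log2 fold change 0.74 and 0.72). Of 28 listed, 16 passed the filter, of which 11 fell and 2 rose (Zeb2 and Fn1), or 10 and 2 of 15 without a gene that passed through the floxed group alone, with a median log2 fold change of −0.51 against 0.008 over all genes tested. Bhlhe40, a transcriptional repressor, averaged 312 ± 1.99 TMM-scaled counts in null and 2803 ± 147 in floxed cells (−3.17, adjusted p = 2.19e-29). Spp1, which encodes the secreted protein osteopontin, averaged 2722 ± 526 in null and 15324 ± 1184 in floxed cells (−2.49, adjusted p = 6.37e-23). Vegfa, the angiogenic growth factor, averaged 993 ± 40.9 in null and 2018 ± 57.3 in floxed cells (−1.02, adjusted p = 7.12e-19). Many of these genes are also known targets of other cytokines.

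**Figure D3:**
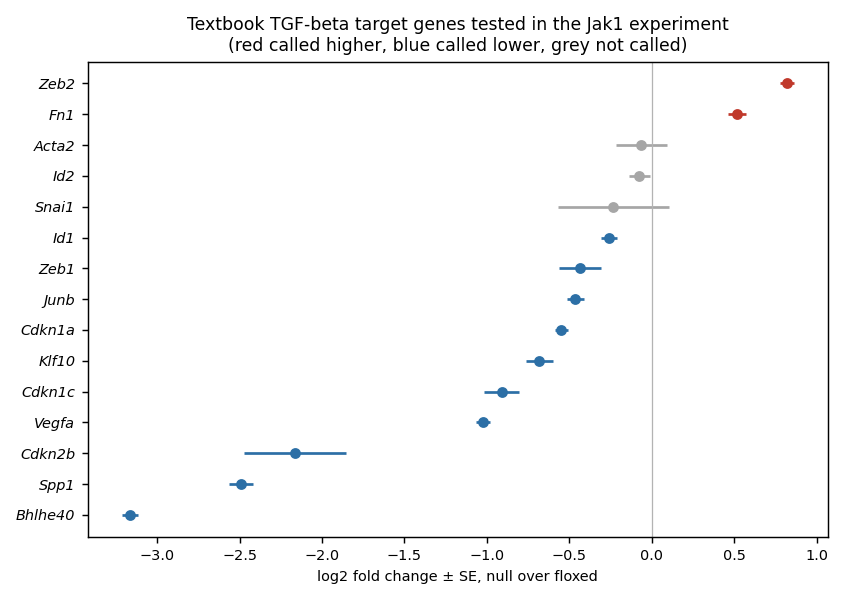
Log2 fold change, null over floxed, with its SE, of 15 of the 16 listed TGF-beta target genes tested in the Jak1 experiment, 1 row a gene. Red marks the 2 genes called higher (Zeb2 and Fn1), blue the 10 called lower and grey the 3 not called, with Bhlhe40 lowest at −3.17.

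Around the ligands, genes of latency and activation were divided: of 10 tested, 4 fell and 4 rose. Over all genes tested 28.3% were called lower and 27.4% higher. Ltbp2 and Lrrc32 passed the filter through the floxed group alone and are left out of these counts. Lrrc32, whose product GARP displays latent TGF-beta on the cell surface, had 4, 2 and 2 raw counts in null libraries, against 29, 48 and 29 in floxed libraries. Furin, the protease that cleaves the TGF-beta precursor, averaged 2833 ± 119 TMM-scaled counts in null and 4174 ± 191 in floxed cells (−0.56, adjusted p = 5.53e-14). The integrin gene Itgb5 (0.56, adjusted p = 1.46e-10) and Emilin1, whose product restrains TGF-beta processing (0.33, adjusted p = 1.05e-09), rose. All 3 tested genes for other ligands of the superfamily fell, among them the activin subunit gene Inhba (−2.36, adjusted p = 1.41e-11) and Gdf15 (−1.53, adjusted p = 3.12e-11).

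The counts in the lists that follow stand beside 27.4% of all genes called higher and 28.3% called lower in this experiment. Of 6 genes tested for other thrombospondins and thrombospondin receptors, 3 fell and 2 rose. Sdc4, a cell surface proteoglycan, averaged 36.6 ± 8.88 TMM-scaled counts in null and 217 ± 14.6 in floxed cells (−2.57, adjusted p = 5.03e-16). The scavenger receptor gene Cd36 (−1.41, adjusted p = 1.38e-05) and Cd47 (−0.28, adjusted p = 1.42e-08), both thrombospondin receptors, fell, and Lrp1, which takes up thrombospondin, rose (0.66, adjusted p = 4.93e-13). Of 3 other transglutaminase genes tested, F13a1, the coagulation factor XIII subunit, rose (0.46, adjusted p = 3.61e-13) and Tgm1 fell (−0.30, adjusted p = 0.0032). Of 7 other receptor genes 1 rose (the co-receptor Tgfbr3, 0.30, adjusted p = 5.02e-06) and 2 fell (Bmpr1a and Acvr2b). Of 14 other Smad and partner genes 6 rose and 3 fell, with Runx1 at 0.56 (adjusted p = 3.77e-14), Runx2 at 0.53 (adjusted p = 1.08e-09) and Smad5 at 0.33 (adjusted p = 7.27e-07). Of 15 inhibitor genes 3 rose and 5 fell, led by the pseudoreceptor gene Bambi (0.78, adjusted p = 1.96e-11) and the ubiquitin ligase gene Smurf1 (−0.40, adjusted p = 2.54e-05).

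Thrombospondin-1 and TGF-beta are also platelet products, and platelet markers moved with this result. The 7 markers summed to 1.22 to 2.36 CPM in null and 11.03 to 12.02 CPM in floxed cells. Ppbp averaged 8.23 ± 4.05 TMM-scaled counts in null and 106 ± 3.03 in floxed cells, while the defining marker Gp6 was at 0 in all 6 libraries. Of 5 macrophage markers 3 rose and 2 fell, with a sum of 241 to 247 CPM in null and 283 to 309 CPM in floxed cells. Stromal markers summed to at most 1.52 CPM in any Jak1 library. The part of these cells in the result was not tested.

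In MLL-AF9 cells Thbs1 was the member that moved most with DOX, and it moved up, opposite in sign to its value after Jak1 loss. Of 7 members that passed the filter of 1 FPKM, 2 were called, both higher (Thbs1 and Tgm2), where 11.8% of 10881 genes were called, 7.23% higher and 4.54% lower. Rescaling the FPKM without the small RNA shifted the median of all genes by −0.18 on the log2 scale, a shift that differs by gene, and the calls then split into 495 higher and 1611 lower, against 787 and 494 as deposited. The median of the 7 members was 0.22, against −0.016 over all genes tested. Fold changes here are on the log2(FPKM + 1) scale, which understates the change of low genes.

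Thbs1 had 1073, 1129 and 1011 FPKM with DOX, against 649, 568 and 595 with DMSO (0.83, SE 0.0946, adjusted p = 0.00236 by limma). The groups did not overlap, and the rise was called in all 13 alternatives, with 0.64 after rescaling. Tgm2 had 157, 155 and 139 FPKM with DOX, against 121, 90.3 and 110 with DMSO (0.49, SE 0.117, adjusted p = 0.0364, limma). Its groups did not overlap either, but the call was lost in 9 of 13 alternatives (adjusted p 0.0328 to 0.0925), among them the rescaling, where the value was 0.31, and each single-library omission other than that of DMSO 1.

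Tgfb1 had 52.8, 69.6 and 67.6 FPKM with DOX, against 41.9, 50.8 and 48.1 with DMSO (0.42, SE 0.127, adjusted p = 0.0772, limma). All DOX libraries lay above all DMSO libraries, and the difference was called without DOX 1, the shallowest library (0.54, adjusted p = 0.0263, in a range of 0.0263 to 0.263 over the alternatives). Tgfbr2 had 25.6, 29.6 and 30.5 FPKM with DOX, against 25.2, 24.3 and 23.5 with DMSO (0.22, adjusted p = 0.186), a value that shrank to 0.04 after rescaling. Tgfbr1 averaged 7.94 ± 0.70 FPKM with DOX and 9.68 ± 1.098 with DMSO (−0.25, adjusted p = 0.256). Neither Smad3 (1.72 ± 0.433 FPKM with DOX and 1.41 ± 0.487 with DMSO) nor Smad7 (2.32 ± 0.457 with DOX and 2.71 ± 0.75 with DMSO) was called. The other 3 members were below the filter: Tgfb2 was at the floor of 0.01 FPKM in all 6 libraries, and no library showed more than 2 of the smallest steps of Tgfb3 or 1 of Tgfbi.

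Of 14 tested TGF-beta target genes 6 rose with DOX and 0 fell (4 rose after rescaling). Junb, an AP-1 subunit gene, averaged 168 ± 20.0 FPKM with DOX and 89.6 ± 4.83 with DMSO (0.89, adjusted p = 0.00219). Bhlhe40 (0.53, adjusted p = 0.00364), Spp1 (1.01, adjusted p = 0.00493) and Id2 (0.73, adjusted p = 0.00965) rose as well. Of 8 genes of latency and activation 3 rose, led by the proteases Mmp9 (2.14, adjusted p = 0.000254) and Plau (1.13, adjusted p = 0.000775), while after rescaling 2 rose and 2 fell. Lrp1 (0.78, adjusted p = 0.00511) and Itgb3 (0.90, adjusted p = 0.0272) rose and Calr (−0.39, adjusted p = 0.0268) fell among 6 genes of the thrombospondin list. Inhba was 1 of 2 other ligand genes tested and rose by 1.30 (adjusted p = 0.00219). Acvr1b (0.78) was the 1 receptor gene of 5 that was called, Runx2 (−1.02) and Smad5 (−0.52) fell among 12 Smads and partners, and Tgif1 (0.55) and Skil (0.61) rose among 13 inhibitors. The last pair was not called after rescaling. Of 2 other transglutaminase genes tested 0 were called. These p-values are from limma.

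Macrophage markers moved in the same direction as Thbs1: the 5 genes summed to 505 to 601 FPKM with DOX and 323 to 367 FPKM with DMSO, and 3 of the 5 were called higher (Adgre1, Csf1r and Msr1). None of these 5 was at the floor in all libraries, and their part in the result was not tested. Platelet markers summed higher too, with 24.6 to 27.5 FPKM with DOX and 14.2 to 20.7 FPKM with DMSO over the 7 genes. Most of that sum was Pf4 (22.0 ± 2.18 FPKM with DOX and 15.4 ± 4.09 with DMSO) and Ppbp (3.83 ± 0.912 with DOX and 1.22 ± 1.13 with DMSO), neither of which was called, while Gp1ba and Gp6 were at the floor in all 6 libraries. The part of platelet transcripts in the result was not tested.

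In MLL-AF10 cells Thbs1 and Tgfbi rose together with DOX, by 0.89 and 0.95 on the log2 scale, and the groups overlapped for Tgm2. Of 8 members that passed the filter 3 were called, all higher (Thbs1, Tgfbi and Smad3), in a fit that did not pair the libraries. In that fit 19.8% of 10553 genes were called, 10.6% higher and 9.17% lower. With the replicate number as a block, Tgfb1 and Tgfbr2 were called higher as well, and Tgfbr1 lower. The median of the 8 members was 0.09, against 0.0006 over all genes tested. These values were deposited on a log2 scale, and no source used here says how they were made.

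Thbs1 stood at 11.85, 11.63 and 11.57 on the deposited log2 scale with DOX, against 11.12, 10.64 and 10.61 with DMSO (0.89, SE 0.103, adjusted p = 2.86e-05 by limma). Tgfbi stood at 10.19, 10.17 and 10.19 with DOX, against 9.28, 9.20 and 9.22 with DMSO (0.95, SE 0.0323, adjusted p = 1.25e-10). The groups did not overlap for either gene, and library 1 was the highest of its group for Thbs1 with both treatments. The Thbs1 call was lost without a filter on low values (adjusted p = 0.093, in a range of 5.19e-54 to 0.093), while that of Tgfbi was kept in all 11 alternatives. Smad3 stood at 6.36, 6.35 and 6.37 with DOX, against 6.22, 6.16 and 6.18 with DMSO, a small difference that exceeded the spread (0.17, SE 0.0318, adjusted p = 0.00125).

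Tgm2 stood at 7.34, 6.97 and 7.01 with DOX, against 7.37, 6.94 and 7.02 with DMSO, and library 1 was again the highest with both treatments (0.0004, SE 0.0984, adjusted p = 0.998). The numbers of these libraries were taken to pair them, and 3 more members were called with the replicate number as a block, each by a small change. Tgfb1 stood at 10.92, 10.94 and 10.95 with DOX, against 10.86, 10.85 and 10.88 with DMSO (0.07, adjusted p = 0.0808, and 0.0246 with the block). Tgfbr2 stood at 8.18, 8.20 and 8.21 with DOX, against 8.19, 8.01 and 8.07 with DMSO (0.11, adjusted p = 0.0885, and 0.0173 with the block). Tgfbr1 stood at 8.79, 8.72 and 8.74 with DOX, against 8.92, 8.81 and 8.82 with DMSO (−0.10, adjusted p = 0.076, and 0.0186 with the block). Smad7 was not called (5.51 ± 0.0359 with DOX and 5.57 ± 0.0325 with DMSO, −0.06, adjusted p = 0.186). Tgfb2, near 0.95 in all libraries, and Tgfb3, near −1.47, were below the filter.

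Of 12 tested target genes 4 rose with DOX and 1 fell. Fn1, the fibronectin gene, averaged 9.88 ± 0.131 with DOX and 9.02 ± 0.164 with DMSO (0.86, adjusted p = 1.06e-06), and Id1 (0.22, adjusted p = 0.000322), Cdkn1a (0.23, adjusted p = 0.00143) and Junb (0.17, adjusted p = 0.0098) rose by less. Spp1 fell (−0.86, adjusted p = 2.26e-07), against its rise in MLL-AF9, a difference between models that was not tested. Of 13 Smads and partners 5 fell and 0 rose, led by Runx2 (−0.45, adjusted p = 5.15e-06). F13a1 fell (−0.55, adjusted p = 1.14e-06) and Tgm1 rose (0.20, adjusted p = 0.00047), the only transglutaminase genes tested beside Tgm2. Of 5 genes of the thrombospondin list Sdc4 (−0.27), Itgb3 (−0.20) and Cd47 (−0.11) fell and Lrp1 rose (0.26, adjusted p = 0.0479), a call lost with median centring (adjusted p = 0.0523). Among the remaining lists Plau rose (0.10, 1 of 6 genes of latency), Bmpr2 fell (−0.16, 1 of 8 receptors) and Nedd4l fell (−0.14, 1 of 14 inhibitors), and 0 of 2 other ligand genes were called. These p-values are from limma. Macrophage markers again moved with Thbs1: 4 of 5 were called higher, and their sum on the linear scale was 3226 to 3349 with DOX and 2609 to 2943 with DMSO. Their part in the result was not tested.

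In CALM-AF10 cells with the fusion off the members moved little, and those called moved down. Tgfb3 passed the filter through the on group alone and is described without a test. Of the other 9 members 2 fell (Tgm2 and Tgfbr2) and 0 rose, where 5.24% of 12366 genes were called, 2.13% higher and 3.11% lower. The median of the 9 was −0.08, against −0.003 over all genes tested.

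Tgm2 had 11557, 13804 and 13100 TMM-scaled counts with the fusion off, against 15218, 16572 and 17055 with it on (−0.35, SE 0.0699, adjusted p = 0.0239, edgeR). Tgm2 is also among the 359 genes that the authors' deposited table lists as down with CALM-AF10 off, while its lists of 966 genes down with MLL-AF10 off and 887 genes down with MLL-AF9 off hold 0 members. The groups did not overlap, but the call was lost without on 2 (adjusted p = 0.107) or on 3 (adjusted p = 0.118), in a range of 0.00017 to 0.118. Tgfbr2 had 2152, 2224 and 1941 with the fusion off, against 2609, 2608 and 2499.61 with it on (−0.28, SE 0.0549, adjusted p = 0.0211, edgeR). Its call was lost without any 1 of the 3 on libraries (adjusted p 0.0734 to 0.104), in a range of 0.00133 to 0.104. Tgfb3 rests on 4, 4 and 3 raw counts with the fusion off, against 11, 13 and 19 with it on.

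Thbs1 had 60507, 80300 and 76013 TMM-scaled counts with the fusion off, against 51458, 63861 and 61529 with it on, and the groups overlapped (0.29, SE 0.107, adjusted p = 0.154, edgeR). It was called without off 1 (0.41, adjusted p = 0.0309, in a range of 0.00573 to 0.372). Tgfbi had 5510, 5860 and 5259 with the fusion off, against 4870, 4974 and 5125 with it on (0.15, adjusted p = 0.115). Its groups did not overlap, and it was called without off 3 (0.19, adjusted p = 0.0246). Tgfbr1 had 2390, 2412 and 2147 with the fusion off, against 2632, 2557 and 2618 with it on (−0.16, adjusted p = 0.109). Tgfb1 (15116 ± 902 with the fusion off and 15941 ± 409 with it on), Tgfb2 (70.0 ± 13.9 with it off and 78.0 ± 9.66 with it on), Smad3 (725 ± 154 with it off and 774 ± 39.0 with it on) and Smad7 (246 ± 25.4 with it off and 245 ± 13.9 with it on) were not called.

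**Figure D4:**
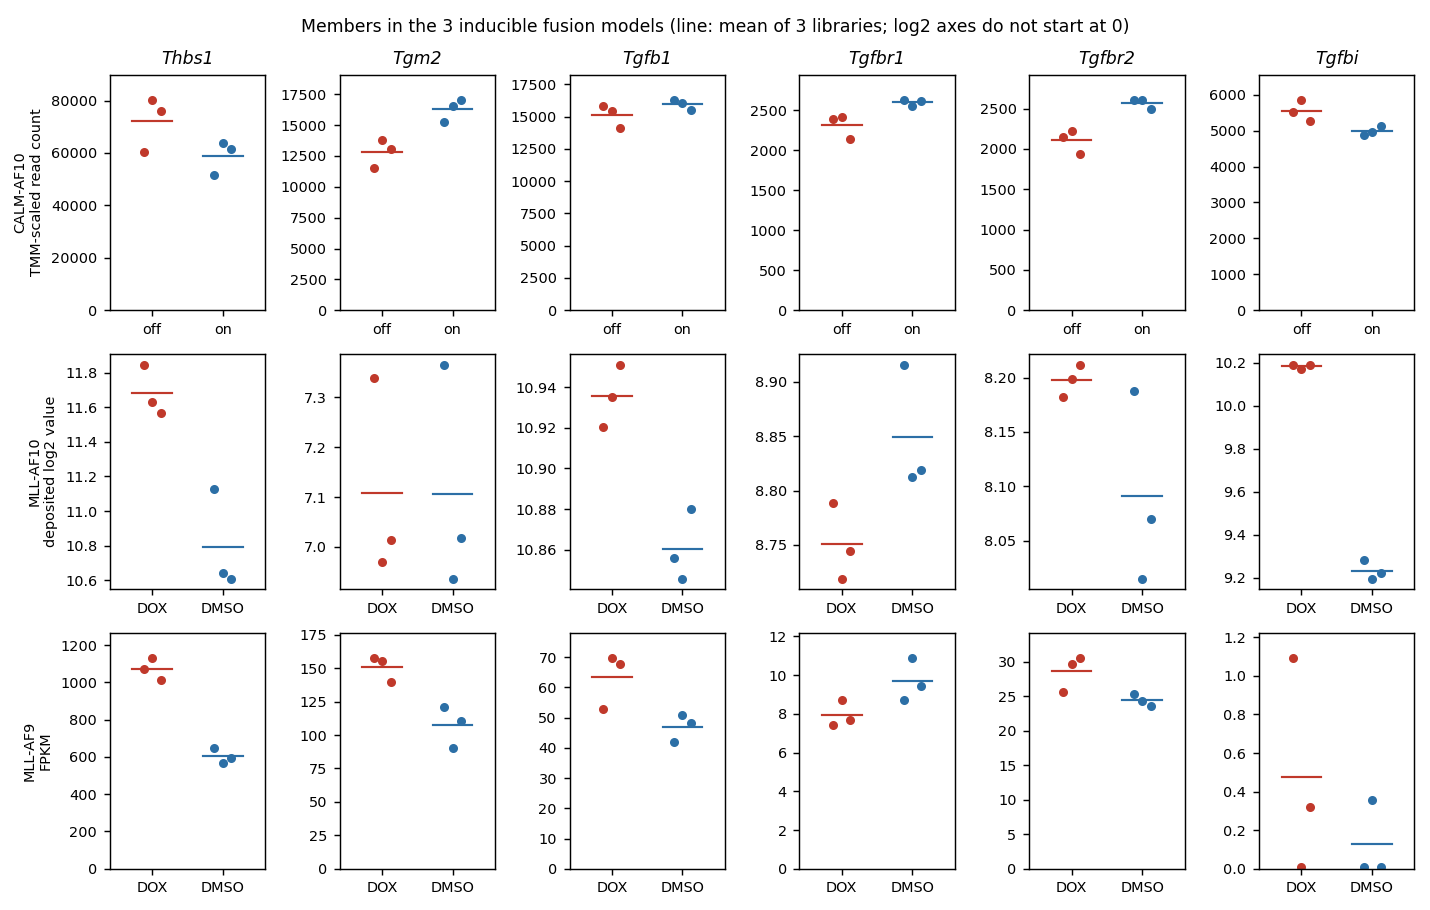
Thbs1, Tgm2, Tgfb1, Tgfbr1, Tgfbr2 and Tgfbi in the 3 inducible models, 1 row a model, with the off or DOX libraries in red at the left, the on or DMSO libraries in blue at the right and a line at each mean of 3. Counts and FPKM start at 0 and the log2 axes do not. Thbs1 with DOX lies between 1011 and 1129 FPKM in MLL-AF9, above 568 to 649 with DMSO, and Tgfbi separates in MLL-AF10 while in MLL-AF9 it is near the floor.

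Of 20 tested target genes 4 fell with CALM-AF10 off and 0 rose: Timp3 (−0.33, adjusted p = 0.0103), Bhlhe40 (−0.25, adjusted p = 0.0141), Spp1 (−1.03, adjusted p = 0.0329) and Cdkn1c (−0.88, adjusted p = 0.0455). F13a1 fell (−0.38, adjusted p = 0.00166) among 4 other transglutaminase genes and Gdf15 fell (−0.56, adjusted p = 0.03) among 4 other ligand genes. Of 8 genes of the thrombospondin list, 13 of latency, 9 receptors, 13 Smads and partners and 15 inhibitors, 0 were called by edgeR's quasi-likelihood test. Platelet markers summed to 303 to 313 CPM with the fusion off and 353 to 362 CPM with it on, Itga2b alone being called lower. None of the 7 was at 0 in all libraries, and their part in the falls was not tested. Macrophage markers summed to 501 to 586 CPM with the fusion off and 466 to 512 CPM with it on.

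The genes most like Thbs1 and Tgm2 were looked for over the 4 experiments. On log2 values centred within each table, over 24 libraries and 9396 genes, the genes nearest to Thbs1 by Pearson's r included Fam20c (0.966), Fdps (0.964), Nabp1 (0.960) and Tbxas1 (0.957). Nearest to Tgm2 were Bhlhe40 (0.989), Bpifc (0.984), Cd14 (0.981), Fam20c (0.980) and Grtp1 (0.980). The libraries share their tables, and the Jak1 experiment sets most of the spread: Bpifc differed by −6.23 there and by −0.16, −0.03 and 0.52 in CALM-AF10, MLL-AF10 and MLL-AF9 cells. Fam20c, which stood near both, differed by −1.65 after Jak1 loss. These values describe likeness and carry no test.

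**Figure D5:**
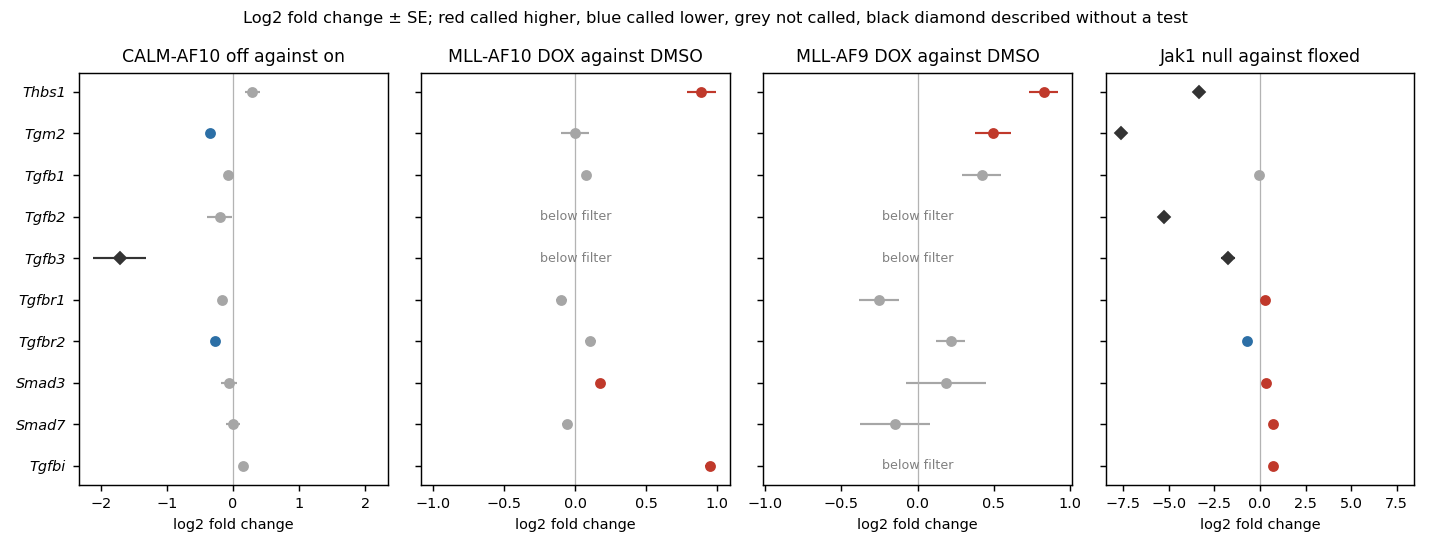
Log2 fold change with its SE of each member in the 4 comparisons, 1 panel each with its own axis, red for called higher, blue for called lower, grey for not called and black diamonds for values described without a test (Thbs1, Tgm2, Tgfb2 and Tgfb3 in the Jak1 experiment and Tgfb3 in CALM-AF10). Thbs1 lies at −3.34 after Jak1 loss and at 0.83 and 0.89 in MLL-AF9 and MLL-AF10 cells given DOX.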

How the data were processed

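For CALM-AF10 and Jak1 the authors deposited whole-number counts of reads per gene, not normalized. The Jak1 table is named FPKM, but the ratio of its mean values to the mean MLL-AF9 FPKM rose with exon length. The slope was 0.798 on the log2 scale over 9432 genes, against 1.03 over 9615 for CALM-AF10, so the count test was used. For MLL-AF10 the authors deposited log2 values made by a transformation that no source used here states, and for MLL-AF9 FPKM with a lowest value of 0.01. A further sheet the authors deposited lists genes by name (unit other). Bowtie 0.12.2 and the build mm9 are listed, without a step, in the submitters' processing notes. Per the labels, MLL-AF9 libraries were made from total RNA and the others from polyA RNA.

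Each table was tested on its own 6 libraries. Counts went through edgeR 4.0.16 (R 4.3.3; filterByExpr, TMM, quasi-likelihood test). Deposited log2 values averaging 3.322 or more (a linear value of 10) and log2(FPKM + 1) with a mean of at least 1 FPKM went through limma 3.58.1 (eBayes with trend). P-values were Benjamini-Hochberg adjusted over all genes tested and called under 0.05. The scripts were tested on simulated data. Alternatives were scaling, filters, DESeq2 1.42.0, pseudocount 0.1, the replicate block and each library left out. CPM per kilobase used exon lengths of GENCODE vM1. Libraries of a group in the count tables differed beyond counting noise (chi-square per degree of freedom 1.68 to 11.5), so none was counted as a copy.

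Same-numbered MLL-AF10 libraries deviated together (correlations 0.397, 0.199 and 0.194), so the numbers were taken to pair them. For numbers 2 and 3 the margin was narrow, with highest other correlations of 0.170 and 0.175. The Jak1 columns DMSO and Jak1_Del were taken as floxed and null. The members and gene lists were chosen with earlier results of these data known. Named were all members, the 5 genes nearest to Thbs1 and Tgm2, and up to 4 called genes per list and comparison by smallest adjusted p, with a few more called genes named where a count was small; some genes that the rule chose are not reported here.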

Additional observations from a re-analysis of the deposited data

Results flagged for a closer look

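The values of Tgm2 had opposite signs in 2 of the models, if DOX is set beside off. Its log2 fold change was 0.49 for DOX over DMSO in MLL-AF9 cells and −0.35 for off over on in CALM-AF10 cells. Each of the DOX libraries lay above each DMSO library, and each of the off libraries lay below each on library.

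Tgfbr2 also had values of opposite sign, with 0.22 for DOX over DMSO in MLL-AF9 cells, which was not called, and −0.28 for off over on in CALM-AF10 cells. The libraries again did not overlap in either model. No source used here says whether DOX turned the fusions off or on, and with DOX set beside on the signs would be the same for both genes. The authors' lists of genes down with MLL-AF10 off and with MLL-AF9 off hold 0 members. Thbs1, called higher with DOX in both models, is thus absent from both lists. Whether those lists match the DOX values was not tested. Neither difference between models was tested, because the tables were normalized separately. The MLL-AF9 values were 0.31 for Tgm2 and 0.04 for Tgfbr2 after rescaling without the small RNA.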

How the results depend on the processing

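The members' fold changes under the alternatives were counted with Tgfb3 included, though it is described without a test. Of these, 353 kept their direction and their side of the threshold, 22 lost a call and 9 gained one. A further 3 moved by more than the spread and 9 changed sign. The 9 belong to 4 differences that were not called. With a library left out, Smad7 in CALM-AF10 ranged from −0.0453 to 0.0898, Smad3 in CALM-AF10 from −0.206 to 0.0635, Tgm2 in MLL-AF10 from −0.115 to 0.13 and Smad7 in MLL-AF9 from −0.29 to 0.00015. Smad7 in CALM-AF10 was also at 0.0019 with the DESeq2 Wald test, and Tgm2 in MLL-AF10 at −0.0113 with median centring. The 3 that moved were Tgm2 without null 2 (−7.98) or null 3 (−7.37) and Tgfb2 without null 2 (−5.42). In the Jak1 experiment Tgfbr1, Tgfbr2, Smad3, Smad7 and Tgfbi were called in all alternatives, the replicate block included, and Tgfb1 in none.

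In CALM-AF10, with Tgfb3 set aside, leaving out a library gave 0 to 3 called members, against 2 with all libraries. It gave 146 to 944 called genes, against 648 with all libraries. The replicate block gave 1048. In MLL-AF10 the block gave 6 called members, leaving out a library gave 3 to 4, and no filter gave 604 called genes, while leaving out a library gave 1307 to 2396, against 2089. In MLL-AF9, 1 member was called with no filter, with no trend or after rescaling without the small RNA, and 1 to 2 with a library left out. Rescaling gave 2106 called genes, the block 781, and leaving out a library 648 to 1036, against 1281.

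Outside MLL-AF10 the numbers were not taken to pair the libraries. In CALM-AF10 the libraries numbered 1 did deviate together (correlation 0.315, highest other −0.179). Those numbered 2 (0.163, highest other 0.176) and 3 (0.018, highest other 0.054) did so no more than with other numbers. The block called Thbs1 in CALM-AF10 (adjusted p = 0.00573) and Tgfb1 in MLL-AF9 (adjusted p = 0.0448), and ended the call of Tgm2 in MLL-AF9 (adjusted p = 0.061). The cause of these changes was not tested. Low counts limit Tgfb3, Tgm2 and Tgfb2 in null cells, and the unstated scale of the MLL-AF10 values limits what the size of their folds shows.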
